A study of Mus musculus with 4 samples.

Results

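The Wnt feedback and target genes followed here are Axin2, Nkd1, Notum, Rnf43, Znrf3, Sp5, Tcf7, Cdca7, Myc and Ephb2, taken as all probe sets that the platform annotation gives to these gene symbols. Of the 10 listed genes 8 had at least 1 such probe set, 14 probe sets in all among the 45037 on the array. Tcf7 and Ephb2 are named by no probe set in that annotation, so no level is given for them. RNA came from intestinal epithelial cells of C57BL/6 mice aged 6 to 8 weeks in a model of colitis-associated colorectal cancer. Each mouse had an intraperitoneal dose of azoxymethane at 10 mg/kg and, after 5 days, drank 3.5% dextran sulfate sodium for 5 days, and colons were taken on day 12. The genotypes were Bmi1ΔIEC (loss of Bmi1), Mel18ΔIEC (loss of Mel18, whose gene symbol is Pcgf2), the double knockout Bmi1ΔIEC Mel18ΔIEC, and WT, all of them treated alike. Bmi1 and Mel18 are related subunits of Polycomb repressive complex 1, which keeps genes silent through chromatin. Each genotype has 1 array, so no difference has a replicate check and none was tested. The means of deletion and the number of mice behind an array are not given in the sources used here.

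Wnt ligands bind Frizzled receptors and LRP co-receptors at the cell surface, which stops a cytoplasmic destruction complex from degrading beta-catenin. Beta-catenin then joins TCF/LEF factors on DNA and switches on target genes, a programme known in the colon for keeping stem and progenitor cells at the crypt base. Several targets act back on the pathway: Axin2 is a scaffold of the destruction complex, Nkd1 binds and restrains Dishevelled, Notum is a secreted enzyme that strips the lipid from Wnt ligands, and Rnf43 and Znrf3 are ubiquitin ligases that remove Frizzled from the cell surface. Others carry the response onward. Sp5 and Tcf7 are transcription factors of the programme, Myc drives cell growth, Cdca7 is a chromatin-associated protein that responds to Myc, and Ephb2 is a receptor tyrosine kinase that positions cells along the crypt.

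A promoter window from RefSeq (GRCm38.p6) was at hand for 7 of the 10 genes, in 9 windows. The windows of Sp5, which holds matches to the TCF/LEF core, and of Axin2 and Cdca7, the members that were lower by the size rule on the array labelled double knockout, are shown from 250 bases before the annotated start up to that start, 5′ to 3′. Capitals mark CTTTGAT or CTTTGTT, searched on both strands, which share the letters CTTTG.
Sp5, chr2:70474673-70474922, plus strand: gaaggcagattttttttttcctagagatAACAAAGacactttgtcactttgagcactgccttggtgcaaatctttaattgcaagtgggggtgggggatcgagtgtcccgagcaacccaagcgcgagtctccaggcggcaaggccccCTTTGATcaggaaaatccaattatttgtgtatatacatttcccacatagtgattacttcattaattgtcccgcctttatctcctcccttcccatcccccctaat
Axin2, chr11:108920099-108920348, plus strand: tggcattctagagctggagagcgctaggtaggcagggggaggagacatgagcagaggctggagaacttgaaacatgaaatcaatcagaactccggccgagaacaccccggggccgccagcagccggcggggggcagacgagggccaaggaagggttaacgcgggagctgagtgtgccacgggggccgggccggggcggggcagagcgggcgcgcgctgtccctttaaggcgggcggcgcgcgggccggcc
Cdca7, chr2:72475969-72476218, plus strand: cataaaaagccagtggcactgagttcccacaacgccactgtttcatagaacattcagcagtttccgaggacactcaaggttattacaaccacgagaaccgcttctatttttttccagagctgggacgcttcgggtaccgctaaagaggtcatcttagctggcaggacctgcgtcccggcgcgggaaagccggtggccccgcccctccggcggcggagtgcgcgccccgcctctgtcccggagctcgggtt
Sp5 held CTTTGAT 104 bases before the start on the strand shown and CTTTGTT, read on the opposite strand, 222 bases before it. The windows of Axin2, Cdca7, Nkd1, Rnf43, Tcf7 and Ephb2 held no match over these bases. Among 32851 promoter windows of the same length, 8.06% held at least 1 of these motifs. A match is a stretch of letters and not a shown binding site, and the absence of these letters in this window says nothing of other regions of a gene.

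All values are RMA intensities in linear units, and a difference is the log2 of one array's intensity minus that of another. A gene is represented by its brightest probe set, the one with the highest mean log2 over the 4 arrays. A gene was counted as higher or lower by the size rule when it differed at least 2-fold (1 on the log2 scale) and its brighter value reached the floor of 33.4 units, the median of all probe-set values. Genes called tested are those whose brighter value in a pair of arrays reached the floor, and the word stands for this size rule and not for a statistical test. The targeted genes were read first as a check of the labels. Of the pair of Bmi1 probe sets, the brighter in WT gave 334 units on the array labelled Bmi1, 159.6 on that labelled Mel18 and 432 on that labelled double knockout, against 116 units in WT, and the other gave 339, 135 and 399 units in the same order of arrays, against 88.4 in WT. The brighter Pcgf2 probe set gave 33.4, 39.8 and 32.0 units on the arrays labelled Bmi1, Mel18 and double knockout, against 30.2 in WT. Cdkn2a, a known target of Polycomb repression, read 11.9 units with the Bmi1 label, 11.7 with Mel18 and 662 with double knockout, against 10.6 in WT. Neither Bmi1 nor Pcgf2 read lower on the arrays labelled for its loss, and the place of these probes relative to the deleted parts is not given, so the arrays are called by their labels. Xist, made from the inactive X chromosome, read 611 units on the array labelled double knockout and 45.5 and 54.2 on the arrays labelled Bmi1 and Mel18, against 122 in WT, although the mice are described as matched for sex. All 10 of the listed epithelial markers reached the floor. Cell division, T cell and fibroblast transcripts also differed between the arrays.

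**Figure D1:**
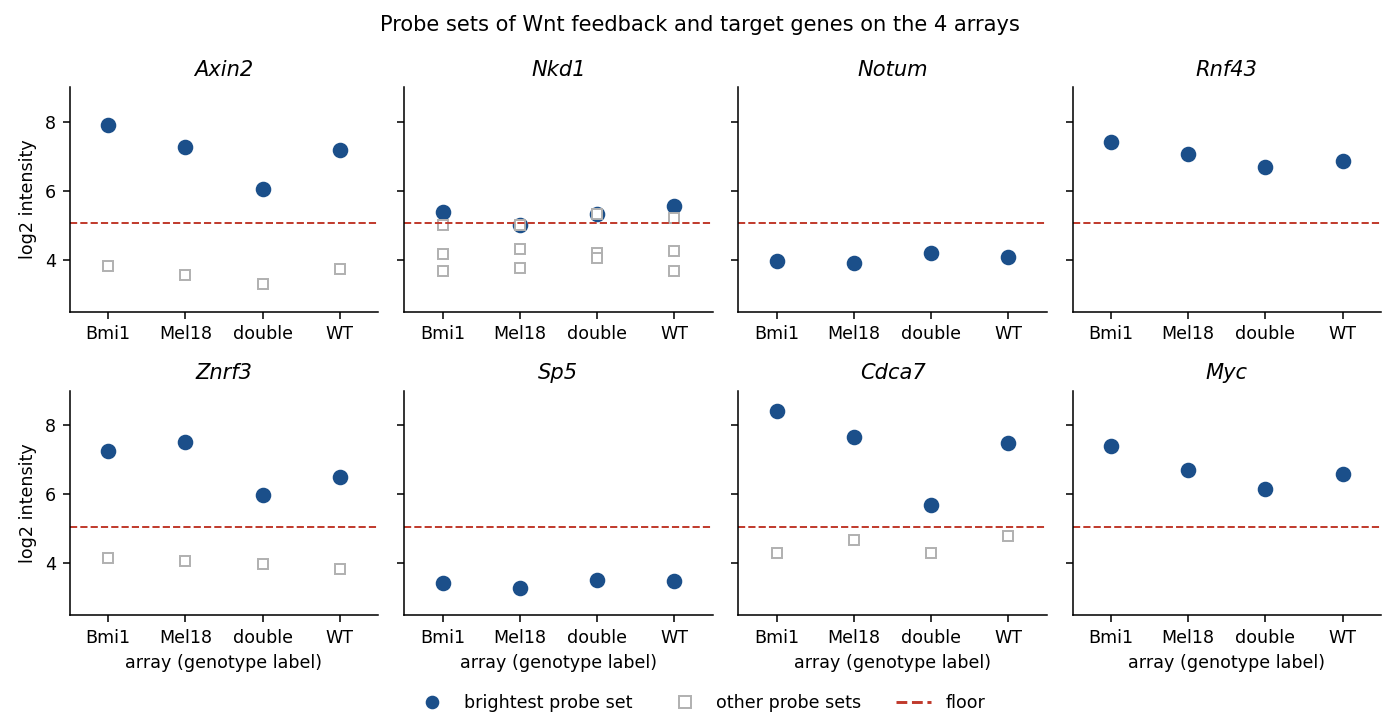
Log2 intensity (vertical axis) of every probe set of the 8 measured genes on the arrays labelled Bmi1, Mel18, double knockout and WT, 1 array each, with the floor as a dashed line. Filled circles are the brightest probe set of a gene and open squares the others. The brightest probe sets of Axin2, Rnf43, Znrf3, Cdca7 and Myc lay above the floor on all 4 arrays. These probe sets had their lowest value on the array labelled double knockout, whereas Notum and Sp5 lay under the floor throughout.

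Across the genotypes, 5 members that lay above the floor on every array had 1 feature in common: each had its lowest level on the array labelled double knockout. These were Axin2, Rnf43, Znrf3, Cdca7 and Myc. How many of all genes were lowest on that array was not counted, so this order is not shown to be particular to the members. Of all genes tested, 47.8% read higher there than in WT. The share was 39.5% against the array labelled Bmi1 and 40.6% against that labelled Mel18. Axin2, Rnf43, Cdca7 and Myc had their highest level on the array labelled Bmi1, and Znrf3 on the array labelled Mel18. Nkd1, Notum and Sp5 lay near or under the floor, and their brightest probe sets had their lowest values on the array labelled Mel18. In RNA from a whole preparation of cells, fewer cells of a type and less RNA per cell cannot be told apart.

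Among the feedback genes, Axin2 read 239 units on the array labelled Bmi1, 156 on the array labelled Mel18 and 66.0 on the array labelled double knockout, against 144 in WT. The array labelled Mel18 and the WT array lay close together, with the array labelled Bmi1 above and the array labelled double knockout below both. The log2 differences from WT were 0.73, 0.11 and -1.12 in that order of knockouts, so Axin2 passed the size rule as lower on the array labelled double knockout. The other Axin2 probe set stayed under the floor, between 9.85 and 14.0 units, and also had its lowest value on the array labelled double knockout.

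Znrf3 read 151 units on the array labelled Bmi1, 182 on that labelled Mel18 and 62.8 on that labelled double knockout, against 90.3 in WT. Both arrays labelled for loss of 1 gene lay above WT, and the array labelled for loss of both lay below it. Its differences from WT were 0.74, 1.01 and -0.52, of which the value with the Mel18 label passed the size rule as higher. That call did not hold with arrays aligned on genes reaching the floor (0.85), with quantile normalization (0.96) or with its probe sets averaged (0.63). The other probe set of Znrf3 stayed under the floor, between 14.1 and 17.8 units. Its lowest value was in WT and not on the array labelled double knockout, where it read 15.8 units. Rnf43, the paralog of Znrf3, had a narrower spread. It read 169.8 units on the array labelled Bmi1, 133 on that labelled Mel18 and 103 on that labelled double knockout, against 115 in WT. Its differences from WT of 0.56, 0.20 and -0.16 all missed the size rule.

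Nkd1 was measured by 4 probe sets, of which only the brightest and the next reached the floor on any array. The brightest read 41.8 units on the array labelled Bmi1, 32.4 on that labelled Mel18 and 40.1 on that labelled double knockout, against 46.9 in WT, where it was highest. The next brightest read 32.1, 32.0 and 40.4 units on those arrays, against 36.7 in WT, and was highest on the array labelled double knockout. The Nkd1 probe sets thus gave no shared order of the arrays, and no Nkd1 difference passed the size rule. Notum, with 1 probe set, read 15.7, 15.0 and 18.4 units on the arrays labelled Bmi1, Mel18 and double knockout, against 16.8 in WT. Sp5, also with 1 probe set, read 10.8, 9.74 and 11.4 units on these arrays, against 11.1 in WT. Both genes lay under the floor on all 4 arrays, so no difference is drawn from them.

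Of the targets that carry the response onward, Cdca7 had the widest spread of the 8 genes. It read 337 units on the array labelled Bmi1, 203 on that labelled Mel18 and 51.1 on that labelled double knockout, against 177 in WT. The value with the double knockout label stood far below the others, and Cdca7 passed the size rule there with a difference from WT of -1.79. The differences of 0.93 on the array labelled Bmi1 and 0.20 on the array labelled Mel18 missed it. A dimmer Cdca7 probe set, under the floor at 19.5 to 27.4 units, had its highest value in WT and was not above it on the array labelled Bmi1. The lowest value of this probe set was on the array labelled Bmi1 (19.5), beside 19.7 on that labelled double knockout. Myc, with 1 probe set, read 168 units on the array labelled Bmi1, 104 on that labelled Mel18 and 71.7 on that labelled double knockout, against 96.6 in WT. Myc was thus ordered like Axin2 and Cdca7 but over a narrower range, with differences from WT of 0.80, 0.10 and -0.43 that all missed the size rule.

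Read by comparison, 6 members were tested against WT on each knockout array (Axin2, Nkd1, Rnf43, Znrf3, Cdca7 and Myc), and these comparisons share the WT array. With the Bmi1 label, no member passed the size rule in either direction, where 5.76% of all genes tested were higher and 2.86% lower. All of the 6 except Nkd1 lay above WT, with a member median of 0.74 on the log2 scale beside 0.13 over all 11934 genes tested. Cdca7 passed as higher, at 1.02, with arrays aligned on their medians. On the same pair of arrays 1 of 22 cell division genes and 5 of 11 fibroblast markers were lower, and the part of these in the member values was not tested. At a 1.5-fold rule 4 of the 6 were higher on the array labelled Bmi1 (Axin2, Znrf3, Cdca7 and Myc), beside 17.8% of all genes tested. Under the Mel18 label, 1 of 6 was higher (Znrf3) and none lower, beside 3.15% and 2.5% of all genes tested. The member median was 0.15 beside 0.07 over 11862 genes, and the small positive values of Axin2 and Myc turned to -0.05 and -0.06 with arrays aligned on genes reaching the floor.

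Under the double knockout label, 2 of 6 were lower (Cdca7 and Axin2) and none higher, beside 2.19% and 2.13% of all genes tested. All 6 lay below WT, with a member median of -0.48 beside -0.01 over 11853 genes. The Cdca7 difference from WT was among the lowest, with 55 of the 11853 genes tested below it, and the Axin2 difference had 185 genes below it. When the probe sets of a gene were averaged, Axin2 at -0.78 no longer passed and Cdca7 stood at -1.14. On the same pair of arrays 16 of 22 cell division genes were lower (median -1.30) and 3 of 10 T cell markers higher, and the part of these in the member values was not tested. Between array alignments and quantile normalization the Axin2 difference ranged from -1.17 to -1.12 and that of Cdca7 from -1.86 to -1.79.

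**Figure D2:**
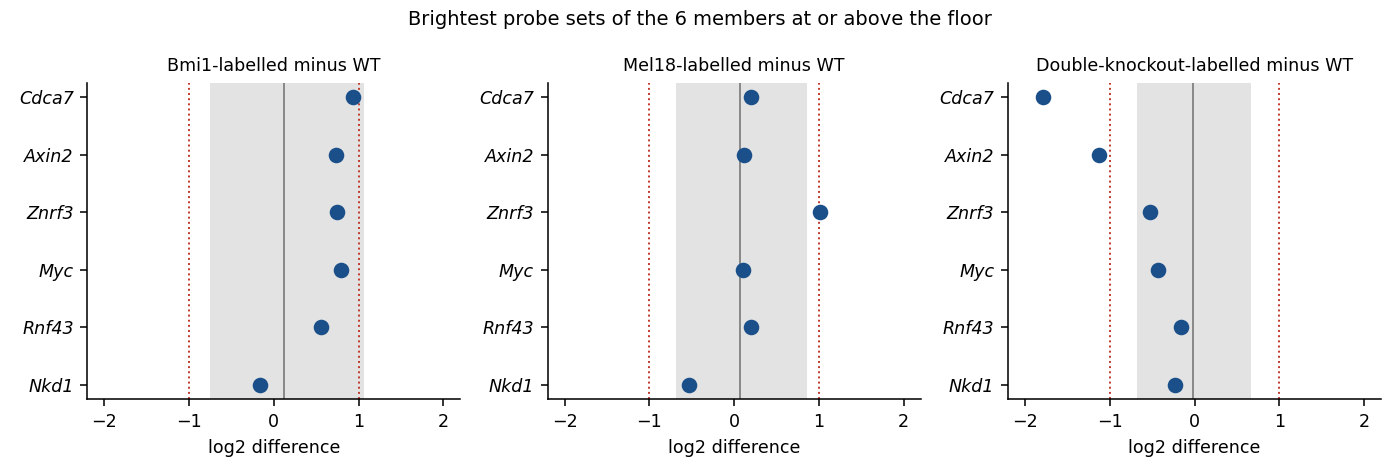
Log2 difference from WT (horizontal axis) of the 6 members that reached the floor, in 1 panel for each knockout-labelled array. Grey bands span the 5th to 95th percentile of all genes tested, the grey line is their median and dotted lines mark 2-fold. Cdca7 at -1.79 and Axin2 at -1.12 lie below the band on the array labelled double knockout, and Znrf3 at 1.01 lies above it on the array labelled Mel18.

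The members stood furthest apart between the array labelled double knockout and the arrays labelled for loss of 1 gene. Against the array labelled Bmi1, 4 of 6 were lower and none higher, beside 7.96% and 4.3% of 11966 genes tested. The differences were -2.72 for Cdca7, -1.86 for Axin2, -1.27 for Znrf3 and -1.23 for Myc. Rnf43 at -0.71 and Nkd1 at -0.06 missed the size rule, as did Myc at -0.99 with arrays aligned on genes reaching the floor and Znrf3 at -0.72 with probe sets averaged. Against the array labelled Mel18, 3 of 6 were lower and none higher, beside 4.53% and 3.84% of 11879 genes tested. These were Cdca7 at -1.99, Znrf3 at -1.53 and Axin2 at -1.24, while Myc at -0.53 and Rnf43 at -0.36 missed the size rule and Nkd1 lay at 0.31. With probe sets averaged, 1 of these calls was left, Cdca7 at -1.18, as Axin2 stood at -0.75 and Znrf3 at -0.81. Cell division genes were lower for 14 of 21 against the array labelled Bmi1 (median -1.11) and for 6 of 21 against that labelled Mel18 (median -0.72). T cell markers were higher for 6 of 10 and 7 of 10, and fibroblast markers for 9 of 12 and none of 12, in the same order. The part of these transcripts in the member differences was not tested. These comparisons share the array labelled double knockout. Between the arrays labelled Bmi1 and Mel18 no member passed, beside 0.882% of genes higher and 0.522% lower. The largest differences there were 0.73 for Cdca7, 0.69 for Myc and 0.62 for Axin2, all higher on the array labelled Bmi1, and Znrf3 lay at -0.27. At a 1.5-fold rule those 3 genes were higher, beside 3.46% of all genes tested. The member median was 0.49 there, and 20 of 21 cell division genes also lay above 0, with a median of 0.41 beside 0.05 over all genes, though none passed the size rule.

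On the log2 scale, the double-knockout value minus both values for loss of 1 gene plus the WT value is 0 where the differences of the arrays labelled Bmi1 and Mel18 add up. This non-additive term was -2.92 for Cdca7, -2.28 for Znrf3, -1.97 for Axin2, -1.33 for Myc and -0.91 for Rnf43. Over all 12154 genes that reached the floor on some array the term had a median of -0.21, was below 0 for 59.8% and was -1 or lower for 18.6%. With probe sets averaged it was -1.40 for Cdca7, -1.35 for Znrf3 and -1.16 for Axin2. The term of Nkd1 was 0.48, on values near the floor.

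**Figure D3:**
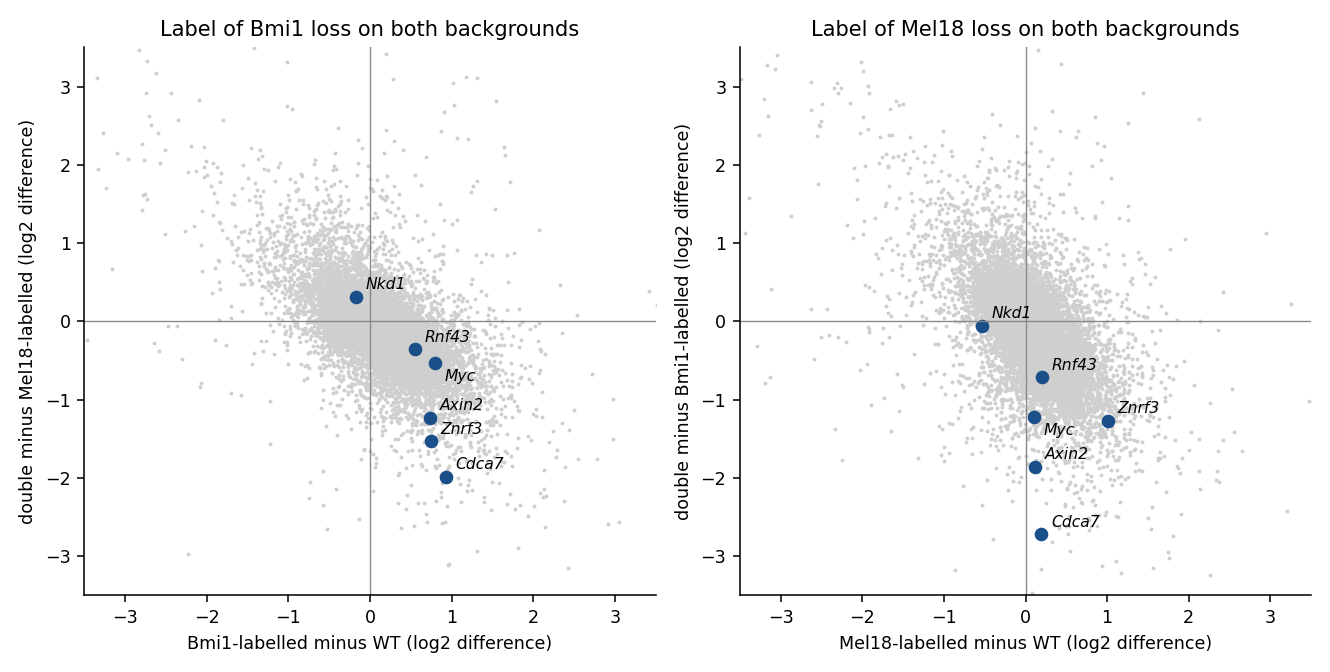
Log2 difference that goes with the label of Bmi1 loss (left) and of Mel18 loss (right), on the WT background (horizontal axis) and on the background labelled for loss of the other gene (vertical axis). Grey points are all genes tested and filled circles the members; 39 genes on the left and 36 on the right lie outside the axes. Cdca7 (0.93 and -1.99), Axin2 (0.73 and -1.24) and Znrf3 (0.74 and -1.53) lie to the lower right in the left panel.

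The other parts of the pathway were read from lists of genes by role. Among ligands and the proteins that release them, 9 of 23 measured genes reached the floor on some array. Wnt8b passed as higher against WT with the labels Bmi1 (1.48) and Mel18 (1.72), as 1 of 8 tested on each. Over all genes tested, 5.76% and 3.15% were higher on these arrays. Wnt8b read 70.1 units on the array labelled Bmi1, 82.7 on that labelled Mel18 and 15.5 on that labelled double knockout, against 25.1 in WT. Its differences thus rest on a WT value under the floor. Wls, which carries Wnt ligands to the cell surface, was lower on the array labelled double knockout at -1.01, just past the 2-fold limit. It read 84.6 units there against 169.8 in WT, and was 1 of 7 tested, beside 2.19% of all genes lower. The R-spondin gene Rspo2 reached the floor on all 4 arrays, at 40.7 units with the Bmi1 label, 33.7 with Mel18 and 43.9 with double knockout, against 42.8 in WT, and 14 genes of the list, Wnt5a and Rspo3 among them, lay under the floor throughout. Of the secreted inhibitors 6 of 15 reached the floor and none passed the size rule against WT on any knockout-labelled array.

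Most receptors lay above WT on both arrays labelled for loss of 1 gene, 12 of 16 with the Bmi1 label and 15 of 16 with the Mel18 label. Over all genes tested these shares were 60.0% and 57.9%. Of the 16 tested, 3 were higher on the array labelled Bmi1 and none lower, beside 5.76% and 2.86% of all genes tested. The receptor median was 0.57 beside 0.13 over all genes. The higher receptors were Lgr5, the R-spondin receptor of crypt stem cells, at 2.11, and the Frizzled receptors Fzd6 at 1.04 and Fzd7 at 1.00. Both Frizzled values lie just past the 2-fold limit. Lgr5 read 93.6 units on the array labelled Bmi1 and 35.1 on that labelled Mel18. It lay under the floor on the array labelled double knockout (18.8) and in WT (21.7), so its difference rests on a WT value under the floor. On the array labelled Mel18 none of 16 passed, with a median of 0.48 beside 0.07. With the double knockout label, none of 14 passed, with a median of 0.12 beside -0.01. These receptor medians kept their sign under every alignment tried and quantile normalization.

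Downstream of the receptors, none of the destruction complex genes, with Ctnnb1, the gene of beta-catenin, counted among them, passed the size rule against WT on any array, out of 17, 17 and 16 tested on the arrays labelled Bmi1, Mel18 and double knockout. Ctnnb1 read 6221, 6668 and 8346 units on those arrays, against 7196 in WT. Among nuclear factors, 1 of 16 was lower on the array labelled Bmi1 (the beta-catenin cofactor Bcl9, -1.05), beside 2.86% of all genes, and 1 of 16 higher on the array labelled Mel18 (the Groucho-family corepressor Tle3, 1.16), beside 3.15%. Single calls in a list of this size are near the share over all genes. None passed on the array labelled double knockout. The TCF genes Tcf7l1 and Tcf7l2 read 637 and 835 units there, against 634 and 629 in WT.

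Other known Wnt targets were divided in direction. Under the Bmi1 label, 4 of 25 were higher, namely Smoc2 (2.16), Lgr5 (2.11, with its WT value under the floor), Ascl2 (1.54) and Sox4 (1.42). The matrix protease Mmp7 was lower at -1.23. Over all genes tested, 5.76% were higher and 2.86% lower on that array. On the array labelled Mel18 Smoc2 (1.18) and Sox4 (1.08) were higher, and Mmp7 (-1.92) and the adhesion receptor Cd44 (-1.01) were lower. The shares over all genes tested were 3.15% higher and 2.5% lower. With the double knockout label, 3 of 25 were lower, namely Tiam1 (-1.22), which activates the GTPase Rac, Smoc2 (-1.06) and the stem cell regulator Lrig1 (-1.06). Sox9, a transcription factor of crypt base cells, at 1.68 and the urokinase receptor Plaur at 1.12 were higher there. The shares over all genes tested on that array were 2.19% lower and 2.13% higher. The list median was 0.20, 0.12 and -0.10 on the 3 arrays in that order, and the first and second of these turned negative with arrays aligned on genes reaching the floor. Sox9 and Plaur thus lay above WT on the same array where Axin2 and Cdca7 lay below it.

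**Figure D4:**
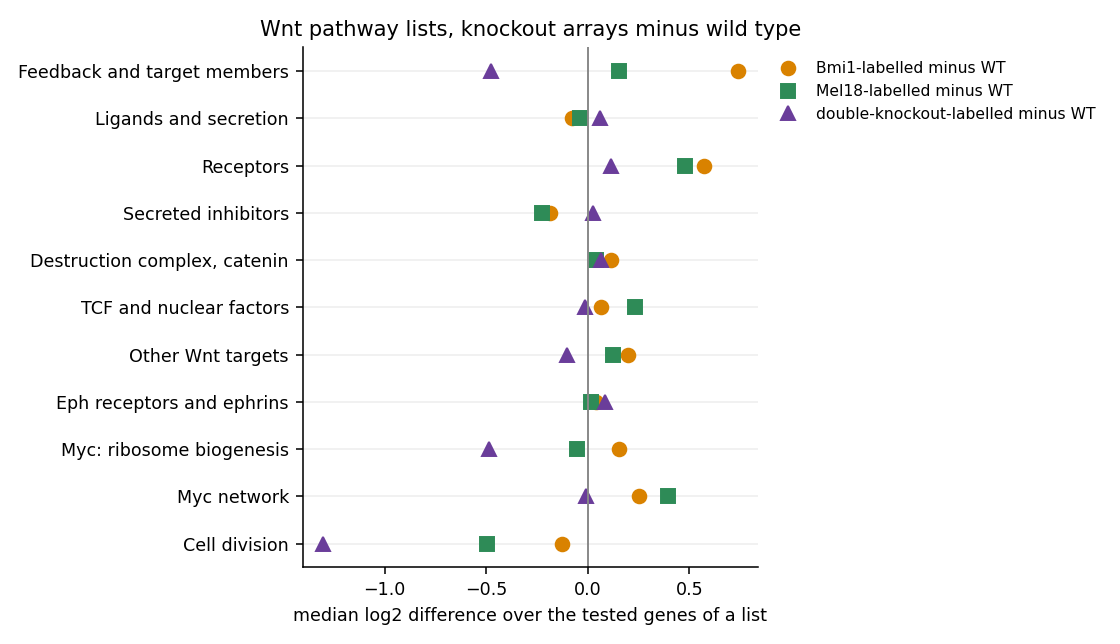
Median log2 difference from WT (horizontal axis) over the tested genes of each list (vertical axis), for the arrays labelled Bmi1, Mel18 and double knockout. The feedback and target members lie at 0.74, 0.15 and -0.48 and the cell division list at -0.13, -0.50 and -1.30, while the destruction complex list lies near 0 on all 3 arrays.

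Genes around Myc and Ephb2 were read in the same way. Of 20 genes of ribosome biogenesis and related Myc targets, 1 was higher on the array labelled Bmi1 (nucleophosmin, Npm1, 1.26), beside 5.76% of all genes, and none passed on the array labelled Mel18. All 20 lay below WT on the array labelled double knockout, where 47.8% of all genes tested lay above WT. Their median was -0.49 beside -0.01 over all genes. Only the spermidine synthase gene Srm (-1.07) passed the size rule, beside 2.19% of all genes lower. Of 12 Myc network genes tested, Mycl was higher on the array labelled Bmi1 (1.59). Mycn was higher with the labels Bmi1 (1.37), Mel18 (1.17) and double knockout (1.56), with 62.9, 54.9 and 72.0 units against 24.4 in WT. Its WT value lay under the floor. Over all genes tested, 5.76%, 3.15% and 2.13% were higher on these arrays. The Myc antagonist Mxd1 was lower on the array labelled Bmi1 at -1.05, beside 2.86% of all genes lower. Among 12 other Eph receptors and ephrins tested, Epha2 was lower with the labels Bmi1 (-1.30) and Mel18 (-1.12), beside 2.86% and 2.5% of all genes. None passed on the array labelled double knockout.

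Cell division transcripts were lower than WT on the array labelled double knockout, where the members were low, and were not above WT as a list on the array labelled Bmi1, although they lay above the array labelled Mel18 there. Under the double knockout label, 16 of 22 cell division genes were lower, beside 2.19% of all genes tested, and none higher, with a median of -1.30. The 6 with the largest differences were Mcm5 (-2.32), Mcm6 (-2.28), Rrm2 (-2.15), Ccne2 (-1.66), Mcm7 (-1.64) and Mcm3 (-1.60), which act in DNA replication, its onset or the supply of its precursors. On the array labelled Bmi1, 1 of 22 was lower (Rrm2, -1.17), beside 2.86% of all genes, and none higher, with a median of -0.13. With the Mel18 label, Rrm2 (-1.73), Mcm5 (-1.31) and Mcm3 (-1.06) were lower, beside 2.5% of all genes, with a list median of -0.50. Summed over the 23 measured genes of the list, the level was 7607 units on the array labelled Bmi1, 5690 on that labelled Mel18 and 3577 on that labelled double knockout, against 8660 in WT. The part of cell division in the Axin2 and Cdca7 differences was not tested.

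Transcripts of other cell types differed too. Over all genes tested against WT, 5.76% were higher and 2.86% lower with the Bmi1 label. These shares were 3.15% and 2.5% with the Mel18 label and 2.13% and 2.19% with the double knockout label. T cell markers summed to 1036 units on the array labelled Bmi1, 837 on that labelled Mel18 and 2605 on that labelled double knockout, against 1663 in WT, over 13 measured genes. Of 10 tested, 2 were lower on the array labelled Bmi1 and 4 on the array labelled Mel18, and 3 were higher on the array labelled double knockout (Gzma, Cd3g and Gzmb). Cd2, Cd5 and Cd247 lay under the floor on all arrays. Fibroblast markers summed to 1935, 4252 and 6424 units on the arrays labelled Bmi1, Mel18 and double knockout, against 4097 in WT, over 12 genes that all reached the floor. Of 11 tested on the array labelled Bmi1, 5 were lower, and of 12 on the array labelled double knockout, 1 was higher (Pdgfrb). Macrophage markers were lower for 6 of 9 tested on the array labelled Bmi1 and 2 of 9 on the array labelled Mel18, and none of 9 passed on the array labelled double knockout. Epithelial markers, which summed to 74463, 78081 and 89644 units on the knockout-labelled arrays in this order, against 87234 in WT, passed in 1 of 10 on the array labelled Bmi1 (Krt20, lower) and in none of 10 on the others. Neutrophil markers summed to 194, 305 and 1879 units in that order of knockouts, against 1951 in WT, over 8 genes, and 3 of 6 tested (S100a8, S100a9 and Lcn2) were lower on both the arrays labelled Bmi1 and Mel18. Of 7 small intestinal and Paneth cell markers tested, Slc10a2, Alpi, Gata4 and Fabp6 were higher and Ang4 lower on the array labelled double knockout. The list summed to 3528 units there against 2169 in WT. Most of both sums was Lyz1, at 2655 and 1608 units, whose difference of 0.72 missed the size rule. Goblet cell markers summed to 45595 units with the Bmi1 label, 68627 with Mel18 and 85091 with double knockout, against 62575 in WT, so their order ran opposite to that of Axin2 between the arrays labelled Bmi1 and double knockout. All 8 goblet markers lay above WT with the double knockout label and Clca1 passed at 1.04. Of 11 colonocyte markers, Guca2a (2.41), Car1 (1.45) and Fabp2 (1.32) were higher and Aqp8 (-1.43) and Slc26a3 (-1.15) lower on that array. The part of these cell types in the member differences was not tested.

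The genes whose 3 differences from WT lay nearest to those of Axin2 were sought by Euclidean distance over the 3 knockout-labelled arrays. There were 12153 other genes that reached the floor, and the nearest 5 were named after skipping systematic clone and predicted gene names. They were Smo, the Hedgehog signal transducer, at 0.09, Dut, which clears dUTP, at 0.09, Rfc4, a subunit of the replication clamp loader, at 0.11, the ubiquitin ligase Trim37 at 0.15 and Stmn1, which destabilises microtubules, at 0.20. Smo read 267 units on the array labelled Bmi1, 176 on that labelled Mel18 and 78.5 on that labelled double knockout, against 161 in WT. Among the members, Myc lay at a distance of 0.70 from Axin2 with 264 genes nearer, Cdca7 at 0.70 with 275 nearer, Rnf43 at 0.98 with 1261 nearer, Znrf3 at 1.08 with 1954 nearer and Nkd1 at 1.43 with 6543 nearer. At least 264 other genes thus lay nearer to Axin2 than any member did.

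Nearest to Cdca7, with the same kinds of names skipped, were the cell cycle kinase gene Wee1 (distance 0.23) and the semaphorin Sema5a (0.29). Next came the glutathione transferase Gsta3 (0.32), Myb, a transcription factor of progenitor cells (0.32), and the glutathione transferase Gstm1 (0.42). Axin2 was the member closest to Cdca7, with 25 genes nearer. Myb read 1713 units on the array labelled Bmi1, 1373 on that labelled Mel18 and 281 on that labelled double knockout, against 976 in WT. These likenesses rest on 4 arrays that all enter through the same WT values.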

How the data were processed

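Total RNA (200 ng per array, Trizol) from colonic cells released by EDTA was labelled with biotin and hybridised to Affymetrix Mouse 430 2.0 arrays, per the labels' protocols. The deposited values are intensities on a linear scale, from 3.25 to 22803 units, which the authors made by RMA in Expression Console (Affymetrix), per the submitters' processing notes. Neither versions nor a joint summary of the arrays is stated. Log2 values had been foreseen, so log2 was taken of the linear values, without a pseudocount.

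Of 45037 probe sets 34945 had 1 gene symbol, 932 several and 9160 were not listed. Symbols were updated by gene identifier (34741 matched, GRCm38.p6), giving 18193 genes. Array medians ran from 32.1 to 34.2 units. With 1 array per genotype no test was possible, and precision is limited by the number of arrays. The counting was tested on simulated data. Members and lists were chosen with earlier results of these data known. All 10 members were named where measured. Of each pathway list, genes past the size rule against WT were named (at most 6 per array, by size), with the 5 nearest genes for Axin2 and Cdca7. Names outside this rule (Ctnnb1, the TCF genes, Rspo2, ligands under the floor, Cdkn2a, Xist and marker genes) were chosen after values were seen. Alternatives were mean over probe sets, other floors, alignment of arrays on a common median, quantile normalization, a 1.5-fold rule and leaving out probe sets whose suffix marks shared targets (shared-type) (Python 3.11.15, numpy 2.4.6, pandas 2.3.3).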

Additional observations from a re-analysis of the deposited data

Results flagged for a closer look

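The differences that go with 1 label had opposite signs on the background labelled for loss of the other gene for 3 members, each at least 1.5-fold in size. None of these was tested, since each value rests on 1 pair of arrays, and the pairs of a sentence share no array. Axin2 differed by 0.73 between the array labelled Bmi1 and WT and by -1.24 between the arrays labelled double knockout and Mel18. For Cdca7 these values were 0.93 and -1.99, and for Znrf3 they were 0.74 and -1.53. Znrf3 also differed by 1.01 between the array labelled Mel18 and WT and by -1.27 between the arrays labelled double knockout and Bmi1. For each gene and label, the second value minus the first is the non-additive term given above. These values thus restate that term from the same arrays and are no separate support for it. Opposite signs of this size were common on these arrays. They occurred in 11.5% of the 11659 genes tested for the label of Bmi1 loss, with 70 genes in a shared direction, and in 10.5% of 11674 genes for the label of Mel18 loss. Among the 6 members tested there were 3 for the Bmi1 label and 1 for the Mel18 label.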

How the results depend on the processing

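Counts of members, member differences, non-additive terms and medians of the pathway lists were recomputed under the alternatives that could change them. Over all of these together, 746 recomputed values stayed close to those of the main setting, 30 moved and none reversed a called direction. A list median was judged by the size of its move alone, so a turn of its sign is not counted as a reversal. With the mean over all probe sets, Znrf3 was no longer higher on the array labelled Mel18 (0 members), and 1 member, Cdca7, was lower on the array labelled double knockout against both WT and the array labelled Mel18. In that setting the non-additive terms were -1.16 for Axin2, -1.35 for Znrf3 and -1.40 for Cdca7, because dim probe sets enter the mean. Aligning arrays on their medians raised the count higher on the array labelled Bmi1 to 1 (Cdca7) and moved the Rnf43 term to -1.06. Aligning arrays on genes reaching the floor gave 0 members higher on the array labelled Mel18 and a Myc term of -0.93, and quantile normalization also gave 0 higher there. At 1.5-fold, 4 members (Axin2, Znrf3, Cdca7 and Myc) were higher on the array labelled Bmi1, beside 17.8% of all genes, and 3 were higher with the Bmi1 than with the Mel18 label, beside 3.46%. Counts of members with no floor, with the floor at percentile 75 and without shared-type probe sets stayed within 1.5 times those reported, and Notum and Myc had no value in the last. Of 36 differences of members at or above the floor, 3 changed sign under a scaling: Axin2 and Myc on the array labelled Mel18 and Nkd1 between the arrays labelled double knockout and Bmi1.

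The balance of all genes depended on the scaling. As deposited, 66.8% of genes past the size rule on the array labelled Bmi1 and 55.8% on the array labelled Mel18 were higher than WT, and 38.2% and 36.6% with arrays aligned on genes reaching the floor. The median gene differed from WT by 0.13 on the array labelled Bmi1 as deposited, by 0.22 with arrays aligned on their medians and by -0.12 with the other alignment. Under the double knockout label, the share was 49.4% in both, and against the array labelled Bmi1 it was 35.1% and 61.4%, against the array labelled Mel18 45.9% and 62.8%. Between the arrays labelled Bmi1 and Mel18 it was 62.8% and 51.2%. No paired analysis was possible because each genotype has 1 array, and for the same reason no array could be left out.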
